A study of Mus musculus with 6 samples.

Results

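The genes described here are 15 enzymes of glycolysis and 17 genes of the hypoxia response, 32 of the 53465 genes in the count matrix. They were chosen by name: each symbol was matched to its Ensembl gene ID, and all 32 matched a single ID. The libraries held endothelial RNA from mouse cortex. The mice were males, 8 to 12 weeks old, and each carried tie2-Cre, the ai9 reporter and 2 copies of rpl22HA. The control group had received phosphate-buffered saline (PBS) and the other group pentylenetetrazol (PTZ), a blocker of GABA-A receptors that provokes seizures. Each group held 3 libraries, numbered 1, 2 and 4. The Tie2 promoter drives Cre in endothelium and in part of the blood lineage too, ai9 marks cells with Cre by fluorescence, and rpl22HA tags a ribosomal protein in those cells. The title of the series speaks of a translatome, while the sources used here do not give the isolation step, the dose of PTZ or the time to collection.

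Glycolysis breaks glucose down to pyruvate in the cytosol, and endothelial cells draw much of their energy from it although they line blood vessels. The hypoxia response is run by HIF transcription factors, whose alpha subunits (Hif1a, Epas1 and Hif3a) are hydroxylated by the oxygen-dependent prolyl hydroxylases Egln1, Egln2 and Egln3, bound by Vhl and degraded. When oxygen is short the alpha subunits persist, pair with Arnt and bind hypoxia response elements near genes of glycolysis, mitophagy and collagen synthesis. Because HIF alpha is controlled mainly as a protein, the RNA of its target genes is the usual readout of the pathway.

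Total gene counts ran from 11107481 to 15406967 reads per library. Levels are in CPM, the reads of a gene relative to the library's total after TMM scaling, and are given per library or as mean ± SD of 3 libraries. A positive log2 fold change means a higher level in PTZ, and SE is its standard error. The labels do not tie each library to its own animal, so a p-value here measures no more than the spread between libraries, and that spread may be technical. Endothelial markers summed to 12072 to 17104 CPM in PBS and 11633 to 19506 CPM in PTZ, and all 14 had reads. Markers of pericytes and smooth muscle (14 genes, all with reads) summed to 223, 340 and 608 CPM in PBS replicates 1, 2 and 4 and to 1222, 402 and 1137 CPM in PTZ. Fibroblast markers (9 genes, all with reads) ran from 148 to 210.0 CPM in PBS and from 156 to 343 CPM in PTZ. Microglial and myeloid markers (13 genes) ran from 2646 to 3280 CPM and from 1815 to 2650 CPM, and red cell markers (7 genes) from 6605 to 10875 CPM and from 5810.0 to 11709.7 CPM. Reads outside annotated features made up 9.34% of PTZ replicate 1 and 2.99% to 5.19% of the other libraries. No marker gene of these lists was at 0 in all libraries. The part of these shifts in the results below was not tested. In such bulk libraries more RNA per cell and more cells of a type cannot be told apart.

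The question was whether RNA for glycolysis or for the hypoxia response differed in brain endothelial cells after an acute convulsant. No member passed the test, but a few stood higher in PTZ: Pfkfb3, the enzyme that makes the activator of phosphofructokinase, at 59.4 ± 20.0 CPM against 36.3 ± 4.04 CPM, the stress and hypoxia response gene Ndrg1 at 1435 ± 94.4 CPM against 927 ± 98.3 CPM, and the prolyl hydroxylase gene Egln2 at 187 ± 60.6 CPM against 119 ± 27.7 CPM. The body of the glycolytic pathway, from Gpi1 to Ldhb, showed no common direction, and the textbook HIF targets Pgk1 and Ldha had negative values. In edgeR's quasi-likelihood test over all genes, 0 of 13768 genes (0%) had an adjusted p under 0.05, 993 genes (7.21%) had an unadjusted p under 0.05, and DESeq2 called 53 genes higher and 23 lower. None of the 31 members that passed the filter on low counts was called by either tool. Their smallest adjusted p was 0.668 in edgeR, for Pfkfb3, and 0.247 in DESeq2, for Ndrg1. At an unadjusted p under 0.05 stood 3 of the 31 higher, beside 3.83% of all genes tested, and 0 lower, beside 3.38%. The lowest PTZ library was above the highest PBS library for 2 of the 31, Pfkp and Ndrg1, beside 7.30% of all genes tested, and the reverse held for 0, beside 7.04%. The 3 members at an unadjusted p under 0.05 became 0 without PBS replicate 1 or without PBS replicate 4. Without each of the other libraries in turn, 2 members were higher at such a p. These were Pfkfb3 and Egln2 without PBS replicate 2 or PTZ replicate 4, and Egln2 and Ndrg1 without PTZ replicate 1. Without PTZ replicate 2 they were Ndrg1 and Kdm3a, so that only Ndrg1 of the first 3 remained. Members lower at such a p were 2 without PTZ replicate 2 (Ldha at -0.56 and Higd1a at -0.49) and 1 without PBS replicate 2 (Bnip3 at -0.68). Among all genes tested, 6.48% were lower at such a p without PTZ replicate 2 and 3.9% without PBS replicate 2. The share of all genes higher at such a p ran from 2.54% to 4.57% as each library was left out.

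**Figure D1:**
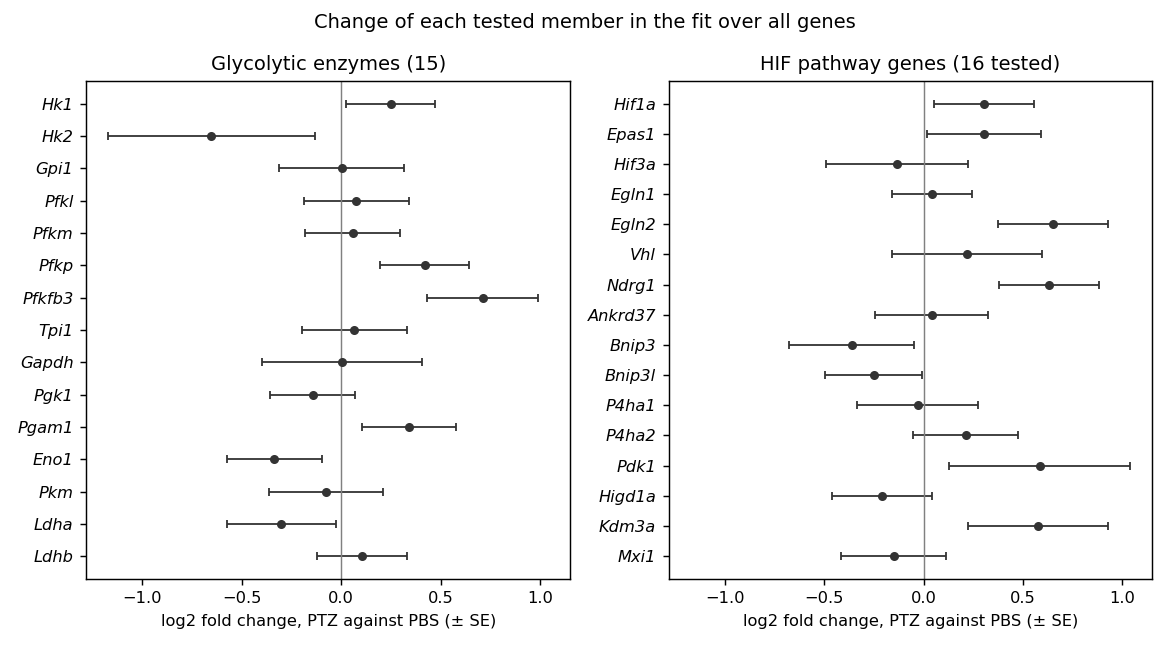
Log2 fold change of PTZ against PBS (horizontal axis, points) with its SE (bars) for the 15 glycolytic enzymes and the 16 tested HIF pathway genes, from the fit over all genes. Pfkfb3 at 0.71, Egln2 at 0.65 and Ndrg1 at 0.63 lie farthest to the right, Hk2 at -0.65 lies farthest to the left, and Gapdh and Gpi1 sit close to 0.

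Stretches before the starts of 3 members are shown because the core of the hypoxia response element, ACGTG or GCGTG on either strand, can be read in them: Egln2, which stood higher in PTZ, and Pgk1 and Ldha, which did not. Each run holds the 160 bases before a RefSeq transcription start (build GRCm38.p6), on the gene's own strand, with every match in capitals. A match on the other strand reads CACGT or CACGC. The runs lie at chr7:27166803-27166962 on the minus strand (Egln2), chrX:106186940-106187099 on the plus strand (Pgk1) and chr7:46845644-46845803 on the plus strand (Ldha).
Egln2: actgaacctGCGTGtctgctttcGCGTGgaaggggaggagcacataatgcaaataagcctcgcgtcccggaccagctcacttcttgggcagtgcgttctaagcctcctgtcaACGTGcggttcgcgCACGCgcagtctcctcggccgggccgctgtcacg
Pgk1: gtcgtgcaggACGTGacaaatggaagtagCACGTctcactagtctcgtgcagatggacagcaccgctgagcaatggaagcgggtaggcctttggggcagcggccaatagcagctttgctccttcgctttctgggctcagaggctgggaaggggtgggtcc
Ldha: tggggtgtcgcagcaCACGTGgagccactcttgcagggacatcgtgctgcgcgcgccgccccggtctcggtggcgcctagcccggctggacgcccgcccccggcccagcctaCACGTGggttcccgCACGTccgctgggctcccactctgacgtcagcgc
Counted from the base farthest from the start, the ACGTG matches of Pgk1 begin 150 and 131 bases before it, and the nearest match of Egln2 and of Ldha begins 34 bases before it. Ldha has 5 matches, of which 4 come from CACGTG, a palindrome (also known as an E-box) that holds ACGTG on both strands and is counted on each. In Egln2 the 4 matches are 1 ACGTG and 3 GCGTG.

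Promoters from 250 bases before to 50 bases after the start were at hand from RefSeq for 29 of the 32 members, not Epas1, Ndrg1 or Bnip3l. ACGTG was found, on either strand and in any listed promoter of the gene, for 19 of 29 members (65.5%), for 28.7% of 10167 tested genes with a promoter and in 19.6% of all 32851 promoters. GCGTG was found for 20 of 29 members (69.0%), for 54.6% of tested genes with a promoter and in 32.4% of all promoters. Either was found for 26 of 29 members (89.7%) and for 66.1% of tested genes with a promoter. Many members are on the list because they are known HIF targets, so the share is a description of that choice. The 18 tested members with ACGTG had a median log2 fold change of 0.02 and 10 positive values, and the 10 without it had a median of 0.09 and 8 positive values. Members without ACGTG can hold GCGTG, so this split is on ACGTG alone. A match is a run of letters, not a bound site.

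Glucose entry into the pathway is set by the hexokinases, which trap glucose as its phosphate. Hk1, the form of brain and most tissues, stood at 103, 155 and 117 CPM in PBS replicates 1, 2 and 4 and at 131, 166 and 149 CPM in PTZ, and the groups overlapped (log2 fold change 0.25, SE 0.22). The inducible, HIF-responsive form Hk2 stood at 9.31, 7.21 and 5.90 CPM in PBS and at 6.44, 3.47 and 4.32 CPM in PTZ. Each PTZ library was below the PBS library of its number, but PTZ replicate 1 lay above PBS replicate 4, so the groups overlapped (-0.65, SE 0.52). Per kb of exon Hk1 made up 91.9% ± 2.85 of the reads of Hk1 and Hk2 in PBS and 95.5% ± 1.89 in PTZ. The share of Hk2 was thus small in all 6 libraries, 2.91% to 11.4%, and its groups overlapped. Hk3 is not a member and was left out of these shares. It stood at 1.16 CPM per kb in PBS and 0.547 in PTZ, beside 1.25 and 0.795 for Hk2.

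Phosphofructokinase is the committed step of glycolysis, and Pfkfb3 makes the sugar phosphate that activates it. Pfkfb3 (ENSMUSG00000026773, chromosome 2, 11471433 to 11554077, minus strand) stood at 34.6, 40.9 and 33.3 CPM in PBS and at 59.4, 79.4 and 39.4 CPM in PTZ. Replicates 1 and 2 of PTZ were above all PBS libraries, and PTZ replicate 4 lay between PBS replicates 1 and 2. Its log2 fold change was 0.71 (SE 0.28, unadjusted p = 0.0289, adjusted p = 0.668 in edgeR), and it ranged from 0.40 to 0.93 as each library was left out. Pfkp, the platelet-type subunit, stood at 46.9, 44.3 and 44.2 CPM in PBS and at 71.2, 59.9 and 50.1 CPM in PTZ, with no overlap (0.42, SE 0.22, unadjusted p = 0.0871). The liver-type subunit Pfkl stood at 238 ± 62.4 CPM in PBS and 251 ± 54.0 CPM in PTZ, and the muscle-type subunit Pfkm at 34.6 ± 1.72 CPM and 36.0 ± 6.62 CPM. Per kb Pfkl was the main subunit, with 71.5% ± 5.96 of phosphofructokinase reads in PBS and 70.6% ± 7.42 in PTZ, while Pfkp made up 6.97% ± 1.24 and 8.60% ± 1.94. The 3 shares overlapped between the groups. Pericyte and smooth muscle markers summed to 402 CPM in PTZ replicate 2, where Pfkfb3 was highest, and to 1222 and 1137 CPM in PTZ replicates 1 and 4, and their part in its level was not tested. Pfkp is annotated with exon overlap of Pitrm1 on the opposite strand, and reads of such overlaps cannot be told apart if strand was not used in counting.

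**Figure D2:**
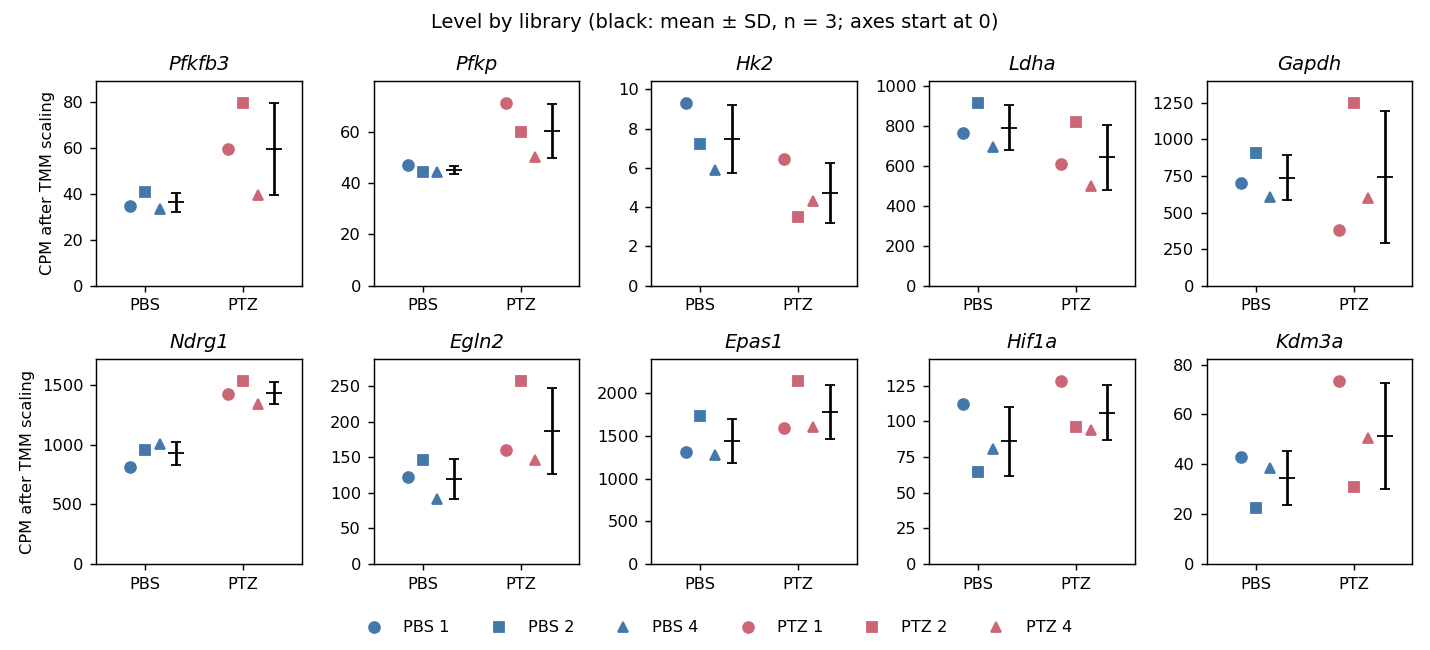
Level of 10 members in each library (points, vertical axes in CPM after TMM scaling, starting at 0; the marker shape gives the replicate number) with mean ± SD of each group of 3 in black. Ndrg1 and Pfkp show no overlap between PBS and PTZ, and Gapdh runs from 380 to 1249 CPM among the PTZ libraries.

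In the middle of the pathway, from the isomerase Gpi1 to pyruvate kinase Pkm, several enzymes varied more among the PTZ libraries than between the groups. Gapdh, the dehydrogenase often used as a reference gene, stood at 704, 907 and 609 CPM in PBS and at 380, 1249 and 598 CPM in PTZ. PTZ replicate 1 was thus the lowest and PTZ replicate 2 the highest of all 6, and the log2 fold change of 0.0051 (SE 0.40) turned to -0.63 without PTZ replicate 2. Pkm stood at 788, 997 and 841 CPM in PBS and 640, 1113 and 734 CPM in PTZ, with the same libraries at the extremes. Tpi1, the triose phosphate isomerase, stood at 305, 324 and 257 CPM and at 255, 423 and 250.1 CPM, and Gpi1 at 218, 317 and 262 CPM and at 181, 404 and 214 CPM. Of the 15 glycolytic enzymes 11 were highest in replicate 2 among the PTZ libraries and 8 were lowest in replicate 1. Among the PBS libraries 9 were highest in replicate 2 too, and 9 were lowest in replicate 4. For the remaining enzymes of this stretch the groups also overlapped. Eno1, an enolase, stood at 541, 463 and 585 CPM in PBS and at 349, 490 and 421 CPM in PTZ (-0.34, SE 0.24), and the phosphoglycerate mutase gene Pgam1 at 120, 108 and 93.2 CPM and at 112, 119 and 177 CPM (0.34, SE 0.24). Pgk1 (ENSMUSG00000062070, chromosome X, 106187100 to 106203699, plus strand), a phosphoglycerate kinase and classic HIF target, stood at 139, 171 and 138 CPM in PBS and at 140.1, 154 and 112 CPM in PTZ (-0.14, SE 0.21). Several of these enzymes have processed pseudogenes of near-identical sequence, and reads aligned to more than 1 place were tallied apart from the gene counts, so their levels are uncertain.

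Lactate dehydrogenase closes the pathway under low oxygen by turning pyruvate into lactate. Ldha (ENSMUSG00000063229, chromosome 7, 46841475 to 46855627, plus strand), the HIF-responsive subunit, stood at 766, 914 and 693 CPM in PBS and at 610, 818 and 498 CPM in PTZ. Each PTZ library was below the PBS library of the same number, but PTZ replicate 2 lay above PBS replicates 1 and 4 (log2 fold change -0.30, SE 0.27). Ldhb, the subunit that favours pyruvate, stood at 266, 199 and 226 CPM and at 208, 291 and 244 CPM (0.10, SE 0.23). Per kb Ldha made up 57.7%, 68.6% and 59.3% of lactate dehydrogenase reads in PBS and 58.2%, 57.2% and 49.2% in PTZ. The share was 7.02 percentage points lower in PTZ on average and the groups overlapped, PTZ replicate 1 lying above PBS replicate 1.

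**Figure D3:**
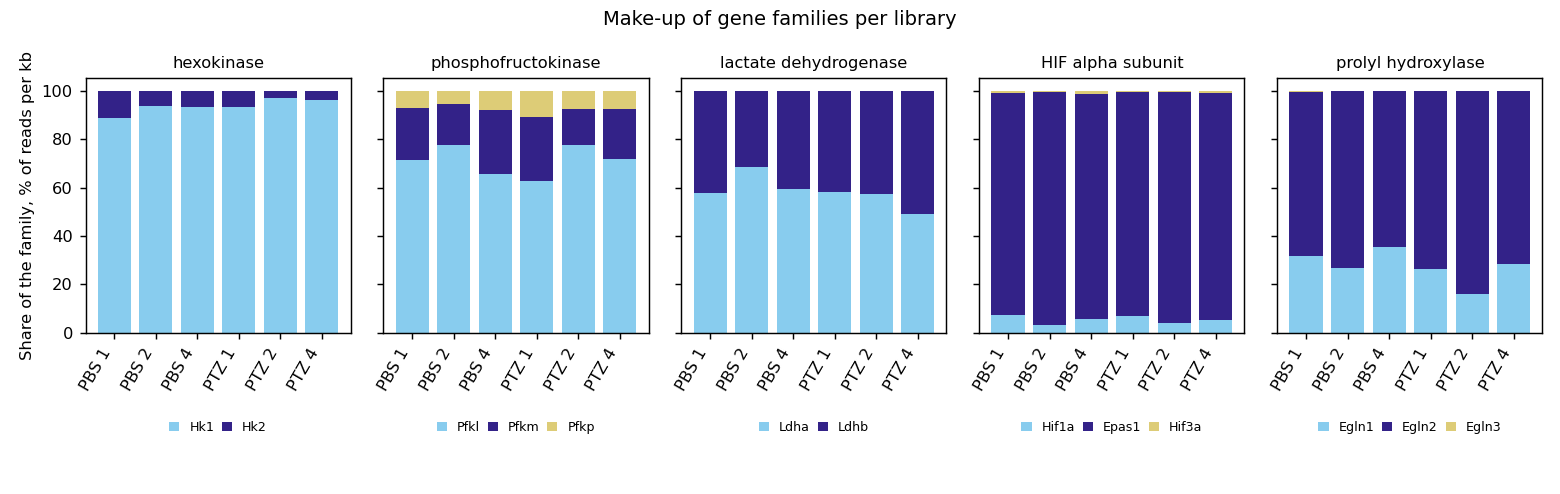
Share of each gene among the members of its family per library, from reads per kb of exon (vertical axis in percent, 1 stacked bar per library). The hexokinase family holds Hk1 and Hk2 here, without Hk3. Hk1, Epas1 and Egln2 make up most of their families in all 6 libraries, and Ldha runs from 49.2% to 68.6%.

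Of the HIF alpha subunits, Epas1, the form typical of endothelium, was by far the most abundant. Epas1 (ENSMUSG00000024140, chromosome 17, 86753700 to 86833410, plus strand) stood at 1309, 1737 and 1284 CPM in PBS and at 1591, 2144 and 1610.1 CPM in PTZ. PBS replicate 2 lay above PTZ replicates 1 and 4, so the groups overlapped (0.30, SE 0.28). Within pairs of equal number the log2 ratio of Epas1 was 0.28, 0.30 and 0.33, an SD of 0.023. This was the smallest such SD among the members, the largest being 1.09 for Pdk1. The numbers are not established as pairs. In edgeR the unadjusted p of Epas1 was 0.310 without and 0.135 with replicate number as a block. Hif1a, the subunit of the general hypoxia response, stood at 112, 64.8 and 80.7 CPM in PBS and at 128, 96.4 and 93.8 CPM in PTZ (0.30, SE 0.25), again higher in each pair but with overlap. Hif3a, which can restrain the others, stood at 16.4, 13.1 and 24.9 CPM in PBS and at 12.4, 20.4 and 16.9 CPM in PTZ (-0.13, SE 0.36). Per kb Epas1 made up 93.5% ± 2.26 of the alpha subunit reads in PBS and 93.8% ± 1.43 in PTZ, and Hif1a 5.46% ± 2.03 and 5.44% ± 1.52. The make-up of the family therefore differed by less than the spread between libraries. Hif1a is annotated with a coding gene that shares exons on the same strand, and reads in shared exons may be missing from its count.

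Among the oxygen-sensing hydroxylases Egln2 was the most abundant per kb and had the largest positive value. Egln2 (ENSMUSG00000058709, chromosome 7, 27158658 to 27166802, minus strand) stood at 121, 146 and 90.5 CPM in PBS and at 159, 257 and 146 CPM in PTZ. Only PBS replicate 2 reached the lowest PTZ library, which it passed by less than 1 CPM. The log2 fold change was 0.65 (SE 0.28, unadjusted p = 0.0403, adjusted p = 0.69 in edgeR), it ranged from 0.31 to 0.80 as each library was left out, and it was positive in all 3 pairs of equal number (0.39, 0.81 and 0.68). Egln1, the main sensor in most cells, stood at 73.0, 68.5 and 63.9 CPM in PBS and at 73.1, 63.6 and 75.0 CPM in PTZ (0.04, SE 0.20). Egln3, a strongly hypoxia-induced form, had 15, 1 and 1 reads in the PBS libraries and 1, 0 and 1 in the PTZ libraries, too few to pass the filter, and its PBS mean rests on replicate 1. Per kb Egln2 made up 68.5% ± 4.39 of the family in PBS and 76.3% ± 6.63 in PTZ, with overlap. Egln2 shares no more than 11 exon bases with a gene on the opposite strand. Vhl, the subunit that marks hydroxylated HIF alpha for degradation, stood at 14.9, 9.28 and 11.7 CPM in PBS and at 18.0, 10.8 and 13.0 CPM in PTZ (0.22, SE 0.38).

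Ndrg1, a gene that HIF is known to induce, had the highest log2 fold change of the tested members after Pfkfb3 and Egln2. Ndrg1 (ENSMUSG00000005125, chromosome 15, 66929318 to 66969640, minus strand), which responds to hypoxia and other stresses, stood at 816, 958 and 1006 CPM in PBS and at 1428, 1532 and 1344 CPM in PTZ. The groups did not overlap, and the mean was 1.55 times as high in PTZ. Its log2 fold change was 0.63 (SE 0.25, unadjusted p = 0.0317, adjusted p = 0.686 in edgeR) and ranged from 0.54 to 0.67 as each library was left out, the narrowest range relative to its value among the 3 members at an unadjusted p under 0.05. The gene is also abundant in oligodendrocytes, whose markers (10 genes) summed to 65.4 to 216 CPM in PBS and 89.3 to 199 CPM in PTZ. The part of these cells, or of pericytes and smooth muscle, in the level of Ndrg1 was not tested. Ndrg1 also has exon overlap with antisense genes, so the strand caveat applies.

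The other HIF target genes showed no common direction. Kdm3a, a histone demethylase gene, stood at 42.8, 22.3 and 38.4 CPM in PBS and at 73.3, 30.8 and 50.4 CPM in PTZ (0.58, SE 0.35). It overlapped across numbers but was higher in each pair, and its unadjusted p was 0.132 in edgeR without and 0.0321 with replicate number as a block. The block left the other 3 members named above under 0.05. It also raised the share of all genes tested that were higher at such a p from 3.83% to 5.59%. Pdk1, a kinase that inhibits pyruvate dehydrogenase, stood at 9.80, 13.8 and 5.37 CPM and at 17.6, 9.03 and 16.6 CPM (0.58, SE 0.46). The mitophagy receptors pointed the other way without passing: Bnip3 stood at 59.6, 32.9 and 83.7 CPM in PBS and 43.6, 50.1 and 43.5 CPM in PTZ (-0.36, SE 0.32), and Bnip3l at 786, 649 and 867 CPM and 595, 689 and 651 CPM (-0.25, SE 0.24). Higd1a, a mitochondrial protein of hypoxia survival, stood at 402 ± 33.6 CPM in PBS and 348 ± 92.8 CPM in PTZ (-0.21, SE 0.25). The collagen prolyl hydroxylase subunits P4ha1 and P4ha2 stood at 46.2 ± 8.49 and 109 ± 18.0 CPM in PBS and at 45.3 ± 18.1 and 126 ± 39.2 CPM in PTZ. Ankrd37 stood at 20.8 ± 3.62 CPM and 21.5 ± 2.44 CPM, and Mxi1, an antagonist of Myc, at 40.5 ± 2.16 CPM and 36.4 ± 11.3 CPM. All of these overlapped between the groups. Higd1a and Bnip3 overlap antisense genes by up to 683 and 342 exon bases. If strand was not used, their counts may lack reads of those stretches or hold reads of those genes.

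**Figure D4:**
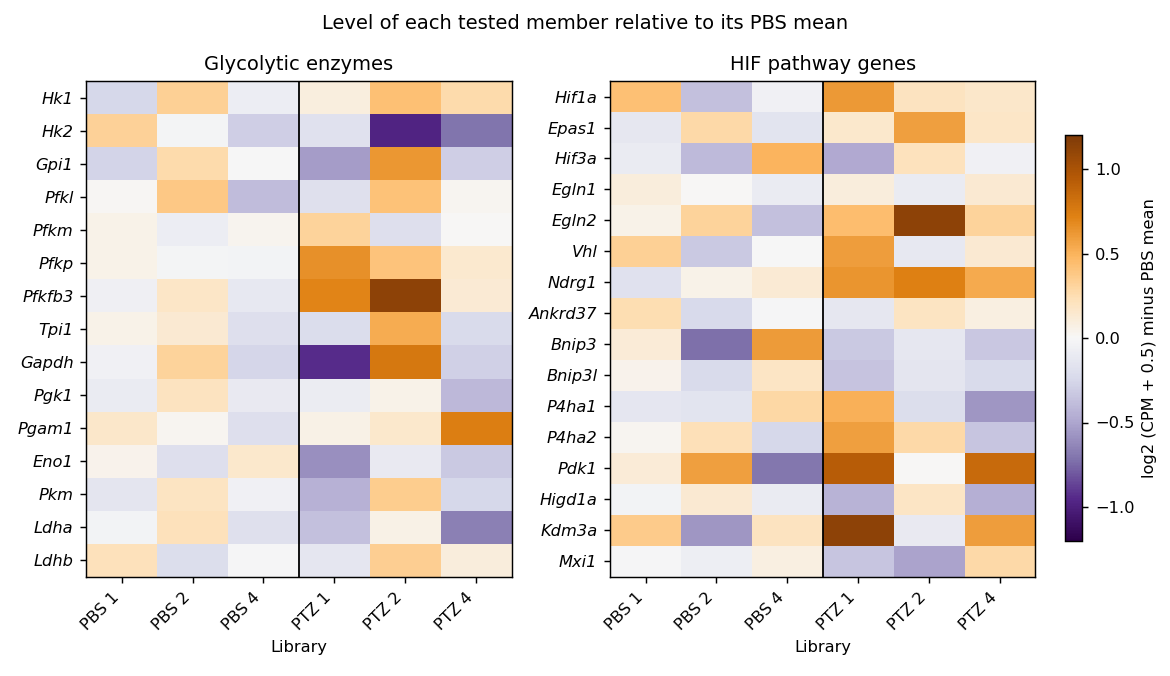
Level of each tested member in each library as log2 (CPM + 0.5) minus the mean of its PBS libraries (colour scale; rows are genes, columns libraries, the black line parts PBS from PTZ). The row of Ndrg1 is above its PBS mean in all PTZ libraries, while the rows of Gapdh and Tpi1 change sign among them.

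Set side by side, the lists had medians close to that of all genes. The 15 glycolytic enzymes had a median log2 fold change of 0.06, with 10 positive and 5 negative values, and the 16 tested HIF pathway genes a median of 0.13, with 10 positive and 6 negative values. All genes tested had a median of 0.03, with 52.7% positive and 47.3% negative values. The median of the glycolytic enzymes was -0.27 without PTZ replicate 2, -0.051 without PBS replicate 4, 0.11 without PBS replicate 2 or PTZ replicate 4 and 0.20 without PTZ replicate 1. For the HIF pathway genes it was 0.02 without PBS replicate 2, 0.03 without PTZ replicate 1, 0.20 without PBS replicate 1 and 0.22 without PTZ replicate 4. In all 3 pairs of equal number the PTZ library was higher for 3 glycolytic enzymes (Hk1, Pfkp and Pfkfb3) and 6 HIF pathway genes (Hif1a, Epas1, Egln2, Vhl, Ndrg1 and Kdm3a), beside 18.5% of all genes tested. It was lower in all pairs for 2 glycolytic enzymes (Hk2 and Ldha) and 0 HIF pathway genes, beside 16.6%.

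Summed levels overlapped between the groups for the glycolytic enzymes and not for the HIF pathway genes, whose sum rests largely on Epas1 and Ndrg1. The glycolytic enzymes summed to 4313, 4982 and 4117 CPM in PBS and 3389, 5712 and 3763 CPM in PTZ, so that PTZ held both the lowest and the highest library. With library totals only, the glycolytic sums were 4625, 4544 and 4072 CPM in PBS and 3850, 4921 and 3902 CPM in PTZ. PTZ again held both extremes, but its libraries lay closer together. The HIF pathway genes summed to 3971, 4377 and 4140 CPM in PBS and 4715, 5582 and 4539 CPM in PTZ, with no overlap. Scaled by library totals only, they summed to 4258, 3992 and 4095 CPM in PBS and 5356, 4809 and 4707 CPM in PTZ, again with no overlap but with PTZ replicate 1 in place of PTZ replicate 2 as the highest. Epas1 contributed 35.4% and Ndrg1 25.9% of that sum. Without Ndrg1 the groups overlapped (3134 to 3420 CPM in PBS and 3195 to 4050 CPM in PTZ), and without Ndrg1 and Epas1 they were close to level, 1793 ± 95.1 CPM in PBS and 1729 ± 163 CPM in PTZ. Summed endothelial markers, like the glycolytic enzymes, were lowest in PTZ replicate 1 and highest in PTZ replicate 2 under TMM, but lowest in PBS replicate 1 with library totals only.

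**Figure D5:**
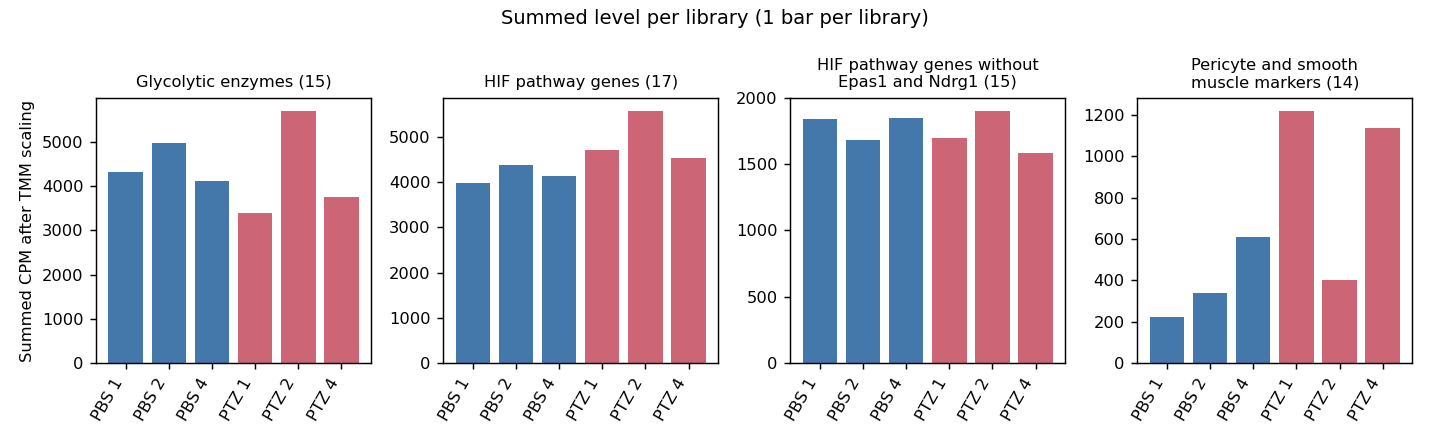
Summed CPM per library (1 bar each, axes from 0) for the 15 glycolytic enzymes, the 17 HIF pathway genes, the latter without Epas1 and Ndrg1, and 14 markers of pericytes and smooth muscle. The HIF pathway sum is 4539 CPM or more in the PTZ libraries and at most 4377 CPM in PBS, the groups overlap without Epas1 and Ndrg1, and the pericyte and smooth muscle sum is high in PTZ replicates 1 and 4 but not in replicate 2.

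By level per kb of exon, averaged over the 6 libraries, Epas1 ranked first among the members at 288 CPM per kb, above 98.1% of all genes tested. Ldha (216), Bnip3l (183), Gapdh (179), Ndrg1 (179) and Pkm (170) followed, each above at least 96.7% of genes tested. Ndrg1 stood at 140.5 ± 14.9 CPM per kb in PBS, below Pkm (175) and Ldhb (147), and at 217 ± 14.3 CPM per kb in PTZ, above Ldha (194). Over all libraries, neighbours among the last 4 differed by less than the SD of Gapdh over the PBS libraries, 36.9 CPM per kb. Hk2 (1.02), Pdk1 (1.55) and Hif3a (2.58) were the lowest of the tested members. Merged exon length was used, which understates genes with long, rarely used exons.

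Further genes of these pathways came from lists of sugar metabolism, HIF regulators and HIF targets. Of 39 tested genes of neighbouring sugar metabolism 21 had a positive value (median 0.04). Beside 7.21% of all genes tested, 0 of these 39 had an unadjusted p under 0.05 in either direction. Those with the smallest p were Taldo1 of the pentose phosphate pathway (535 ± 37.6 CPM in PBS, 371 ± 94.0 CPM in PTZ, -0.53), Dlat of pyruvate dehydrogenase (18.8 ± 2.69 and 27.4 ± 4.82 CPM, 0.55), the lactate exporter Slc16a3 (8.64 ± 2.64 and 14.7 ± 3.36 CPM, 0.76) and the phosphatase Pdp1 (21.5 ± 8.32 and 35.6 ± 17.8 CPM, 0.73). The glucose transporter gene Slc2a1, like Gapdh, was highest of all in PTZ replicate 2, at 3711, 6209.9 and 4851 CPM in PBS and 3922, 8525 and 3975 CPM in PTZ. Aldoc, an aldolase typical of astrocytes, stood at 2.81, 5.03 and 4.61 CPM in PBS and 0.0732, 4.37 and 29.7 CPM in PTZ. Summed astrocyte markers (9 genes) ran from 50.8 to 145 CPM in PBS and from 69.1 to 193 CPM in PTZ, and PTZ replicate 4 was the highest in both.

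Of 24 tested regulators of HIF 15 had a positive value (median 0.08). An unadjusted p under 0.05 was found for 0 of them, beside 7.21% of all genes tested. The coactivator gene Crebbp stood at 177 ± 15.8 CPM in PBS and 243 ± 48.9 CPM in PTZ (0.46), the ubiquitin ligase gene Siah1a at 17.2 ± 7.28 and 28.4 ± 5.51 CPM (0.71), Commd1 at 52.8 ± 6.63 and 39.6 ± 4.34 CPM (-0.41) and Eloc, a partner of Vhl, at 113 ± 8.24 and 90.2 ± 6.45 CPM (-0.33). Arnt, the partner of all HIF alpha subunits, stood at 18.7 ± 3.33 and 20.9 ± 3.93 CPM (0.16, SE 0.30). Of 52 tested further genes that HIF can induce 34 had a positive value (median 0.14). At an unadjusted p under 0.05 stood 3 above and 1 below their PBS level, beside 3.83% and 3.38% of all genes tested. The higher ones were Ddit4, Angptl4, an inhibitor of lipoprotein lipase (148 ± 11.1 and 243 ± 91.3 CPM, 0.71) and the survival gene Mcl1 (252 ± 53.0 and 364 ± 23.1 CPM, 0.53), and the lower one was the transferrin receptor gene Tfrc (58.7 ± 8.85 and 29.1 ± 10.5 CPM, -1.02). The mTOR inhibitor gene Ddit4 had levels of 25.7, 38.6 and 22.8 CPM in PBS and of 54.8, 145 and 111 CPM in PTZ, with no overlap (1.83, SE 0.36). Its adjusted p was 0.407 in edgeR and 0.0013 in DESeq2. All 4 genes are known to respond to signals other than hypoxia as well. Vegfa, the growth factor most often used to report HIF activity, had 5 to 20 reads in the PBS libraries and 5 to 9 in the PTZ libraries and was not tested.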

How the data were processed

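RNA was sequenced in 6 libraries, 3 per group. The authors deposited raw counts per Ensembl gene, per the file headers: 53465 genes and 5 summary rows that name no gene, which held 16.1% to 22.9% of reads per library and stayed out of library sizes and tests. They also deposited a scaled signal per library, equal to the count divided by 1 factor per library (100% of values whole within 0.01 reads), used only as an alternative scaling. CASAVA, TopHat2 2.1.1, HTSeq, edgeR and GRCm38 are named in the submitters' processing notes. The sources used here give neither the annotation release nor the strand setting. Symbols, coordinates and merged exon lengths came from GENCODE M21 (GRCm38), and promoters from RefSeq (GRCm38.p6).

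Counts were filtered with filterByExpr (minimum count 10, minimum total 15, leaving 13768 of 34777 genes with a read), normalised with TMM, whose factors ran from 0.864 to 1.14, and entered into edgeR 4.0.16 (glmQLFit and glmQLFTest, group as the factor, 2-sided, Benjamini-Hochberg adjustment over all genes tested, threshold 0.05) in R 4.3.3. SE is the log2 fold change divided by the root of its F statistic. The biological coefficient of variation was 0.470. DESeq2 1.42.0, limma-voom 3.58.1, other scalings and filters, the replicate block and leaving out each library were alternatives. Log2 ratios within pairs used a pseudocount of 0.5 CPM. The test was tried on simulated counts in which every gene had the same dispersion, and no result here rests on that trial. Libraries of a group differed by more than sampling noise (chi-square per degree of freedom 48.8 to 116).

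Sample titles give both groups replicate numbers 1, 2 and 4. Across genes, libraries of equal number had correlated deviations from their group's mean (0.191, 0.238 and 0.246, each over 0.1). Those of unequal number correlated at -0.084 to -0.15. Deviations from a group's mean cancel within the group, which ties these values to each other, so they do not establish that the numbers are pairs. Unless a block is named, SE and p come from the unpaired fit, and the blocked fit is an alternative.

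The members and lists were chosen with earlier results of these data known. All 32 members are described. Those at an unadjusted p under 0.05 or with no overlap, and 12 set by name, are given per library. Of each further list up to 4 genes with the smallest unadjusted p are named, with Slc2a1, Vegfa, Arnt and Aldoc in any case. Aldoa was left out because 2 gene IDs carry the symbol. Neuron markers (12 genes) summed to 274 to 483 CPM in PBS and 266 to 506 CPM in PTZ. Platelet markers (5 genes) summed to 304 to 420 CPM and 325 to 453 CPM. Neutrophil markers (8 genes) summed to 213 to 565 CPM in PBS and 79.2 to 391 CPM in PTZ. Of 7 tested neutrophil markers 6 had a negative value (median -1.09), beside 47.3% of all genes tested. The part of this shift in the results was not tested.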

Additional observations from a re-analysis of the deposited data

How the results depend on the processing

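No member had an adjusted p under 0.05 under any of the 15 alternatives (smallest 0.247, Ndrg1 in DESeq2), and 18 of the 31 tested members kept their sign in all of them, Pfkfb3, Pfkp, Egln2, Ndrg1, Epas1, Hif1a, Hk2 and Ldha among them. With the replicate number as a block edgeR still called 0 genes, 4 members were higher at an unadjusted p under 0.05 (Kdm3a joined), and no other member's call changed. Over all genes tested, the share higher at such a p was 5.59% with the block and 3.83% without it. Over all genes the calls were 77 higher and 44 lower without the filter on low counts, 53 higher and 23 lower under DESeq2, 1 higher and 0 lower under limma-voom, and 0 to 8 higher and 0 lower as each library was left out (8 without PBS replicate 2). Without the filter, where Egln3 enters, the HIF pathway median was -0.00086 and that of the glycolytic enzymes 0.012, beside 0.10 for all genes. As each library was left out, the HIF pathway median was 0.018 to 0.22 and that of the glycolytic enzymes -0.27 to 0.20. With the authors' scaling the median was -0.013 for the glycolytic enzymes and -0.035 for all genes. Members at an unadjusted p under 0.05 numbered 0 to 2 higher and 0 to 2 lower as each library was left out. Over all genes the shares in those fits were 2.54% to 4.57% higher and 1.88% to 6.48% lower. With upper quartile or the authors' scaling, where Egln2 dropped out, 2 members were higher, beside 3.22% and 2.64% of all genes. The cause of these changes was not tested.

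Of the 13 members whose sign turned, 7 did so in fits with all libraries. Gpi1 turned to -0.00012 with DESeq2 size factors, -0.012 with library totals, -0.021 with upper quartile, -0.071 with the authors' scaling, -0.049 without the filter, -8.8e-05 in DESeq2, -0.067 in limma-voom and -0.072 with the block. Gapdh turned to -0.036 with library totals, -0.016 with upper quartile, -0.073 with the authors' scaling, -0.049 without the filter, -0.14 in limma-voom and -0.15 with the block. With the authors' scaling Pfkm was -0.013, Tpi1 -0.011, Egln1 -0.026 and Ankrd37 -0.036, without the filter Egln1 was -0.00086 and Ankrd37 -0.0084, and with library totals P4ha1 was 0.033. As each library was left out, Gpi1 ranged from -0.47 to 0.22, Gapdh from -0.63 to 0.32, Pfkl from -0.15 to 0.25, Pfkm from -0.093 to 0.13, Tpi1 from -0.27 to 0.19, Pkm from -0.39 to 0.079, Ldhb from -0.066 to 0.22, Hif3a from -0.35 to 0.14, Egln1 from -0.035 to 0.092, Vhl from -0.0102 to 0.41, Ankrd37 from -0.103 to 0.18, P4ha1 from -0.39 to 0.18 and P4ha2 from -0.012 to 0.43. With library totals the PTZ to PBS ratio of summed levels was 0.957 for the glycolytic enzymes (0.959 with TMM) and 1.205 for the HIF pathway genes (1.188 with TMM), while single libraries moved more, the HIF pathway sum of PTZ replicate 1 from 4715 to 5356 CPM. Shares within a family do not depend on the scaling of a library.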
